A study of Mus musculus with 62 samples.

Results

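Cyp2b9, Cyp2b10 and Cyp2b13 are the cytochrome P450 genes of the mouse 2b subfamily that the liver count table lists. They were taken by their Entrez identifiers (13094, 13088 and 13089), and they were chosen by their liver levels across the doses, which were known beforehand. The liver table held all 3 among 16206 genes, whereas the tables of prefrontal cortex (17653 genes) and striatum (17874 genes) held 0 of the 3. Female C57BL/6 mice were given the MARBLES mixture, a mixture of polychlorinated biphenyls (PCBs, persistent industrial pollutants), by mouth at 0.1, 1 or 6 mg/kg, or vehicle alone. RNA sequencing of liver covered 4 vehicle libraries, then 4, 6 and 6 in order of dose. The labels name no genetic modification. The brain tables held 4, 5, 6 and 6 libraries in the same order of dose. Every dose group was compared with the same vehicle animals, so the comparisons with vehicle are not independent of each other.

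Cytochromes of the 2b subfamily sit in the endoplasmic reticulum of hepatocytes and oxidise drugs, steroids and pollutants with electrons passed on by the reductase Por. Cyp2b10 is the textbook target of the constitutive androstane receptor CAR, encoded by Nr1i3. CAR is held in the cytoplasm by a chaperone complex, moves to the nucleus after exposure to inducers such as phenobarbital or PCBs that are not dioxin-like, and binds DNA together with the retinoid X receptor Rxra. Cyp2b9 and Cyp2b13 are known as transcripts that female mouse liver holds at a higher level than male liver, under the control of the growth hormone pattern.

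The genes lie in 1 block of chromosome 7, all on the plus strand, in the GENCODE vM21 annotation of GRCm38. Cyp2b10 spans 25897620 to 25926624, Cyp2b13 spans 26061497 to 26096197 and Cyp2b9 spans 26173411 to 26210661. Each has 9 exons and a coding sequence of 1476 bases. The coding sequences of Cyp2b9 and Cyp2b13 were identical at 92.7% of aligned bases, against 87.7% for Cyp2b10 and Cyp2b9 and 88.7% for Cyp2b10 and Cyp2b13. Because of this likeness a read can fit more than 1 member, and how the authors assigned such reads is not given in the sources used here. Of all 100-base stretches of the transcript, none in Cyp2b10 (0%), 1.18% in Cyp2b9 and 9.29% in Cyp2b13 also occurred in another gene. Over 50-base stretches the shares were 9.69%, 11.2% and 27.3%. Of the Cyp2b10 stretches of that length, 0.536% occurred in Cyp2b9 and 7.82% in Cyp2b13. Over 150-base stretches the shares with any other gene were 0%, 0% and 5.04%, and 0% of the Cyp2b13 stretches occurred in Cyp2b9 or Cyp2b10. The read length is not given in the sources used here. Cyp2b13 had the largest share at each of these 3 lengths, and its counts may be affected the most, which was not tested.

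The 250 bases before the start of each gene set Cyp2b10 apart from the other two, and they are shown because the dose response below divides the family in the same way. They come from RefSeq's promoter windows on GRCm38.p6, plus strand, at chr7:25897408-25897657 for Cyp2b10 and chr7:26173159-26173408 for Cyp2b9. The RefSeq start of Cyp2b10 lies inside the GENCODE model, so the last bases of its window fall within that model. Capitals mark matches to AGGTCA, a nuclear receptor half-site. They also mark TTGCNNAA, of the C/EBP type. The last kind in capitals is ATAAAA, of the TATA type, and no match overlaps another.
Cyp2b10: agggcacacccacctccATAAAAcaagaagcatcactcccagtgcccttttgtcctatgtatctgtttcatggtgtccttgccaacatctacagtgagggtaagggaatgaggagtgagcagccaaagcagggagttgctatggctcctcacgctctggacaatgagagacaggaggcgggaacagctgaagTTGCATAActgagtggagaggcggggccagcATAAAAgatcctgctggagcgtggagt
Cyp2b9: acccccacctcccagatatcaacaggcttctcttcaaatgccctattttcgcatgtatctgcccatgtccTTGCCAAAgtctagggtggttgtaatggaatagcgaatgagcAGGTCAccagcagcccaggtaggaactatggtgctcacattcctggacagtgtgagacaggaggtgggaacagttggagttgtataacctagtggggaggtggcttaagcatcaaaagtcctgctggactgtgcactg
The window of Cyp2b13, at chr7:26061245-26061494, differed from that of Cyp2b9 by only T48C and C104T, counted from the 5′ end of the window with the Cyp2b9 base first. Cyp2b9 and Cyp2b13 were thus identical at 99.2% of these bases, while Cyp2b10 matched either of them at 68.8%.

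The windows of Cyp2b9 and Cyp2b13 differ so little that a motif which separates the windows will nearly always set Cyp2b10 apart. Searched on both strands, ATAAAA occurred in Cyp2b10 at 27 and 233 bases before the RefSeq start (positions -27 and -233) and in neither of the others. The match at -27 falls within the GENCODE model of Cyp2b10. ATAAAA occurred in 17.0% of the 32851 windows of the same table. AGGTCA, found in 14.0% of all windows, occurred at position -138 of Cyp2b9 and Cyp2b13 and had no match in Cyp2b10. TTGCNNAA, found in 9.56% of windows, occurred at -58 in Cyp2b10 and at -180 in Cyp2b9 and Cyp2b13. The DR4 element, a direct repeat of that half-site with a spacer of 4 bases (0.0152% of windows), had no match in any of the 3. The same held for GGGCGG (32.7% of windows). It held for CCAAT (33.8% of windows) too. A match is a description of the letters, and the enhancer through which CAR is known to act on Cyp2b10 lies farther upstream than this window.

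Liver libraries held 7381179 to 10203247 counts, with group medians of 9516134, 9824036, 9163967 and 8200789 in order of dose. The tissue label fitted the defining markers, with Alb, the serum albumin gene, between 61685 and 100698 CPM in the 20 liver libraries. CPM is a counts-per-million value. It is unscaled for Alb and corrected below with TMM factors, which even out libraries of different RNA make-up. Transcripts of neurons and glia were seen at low levels in liver: Snap25, a synaptic vesicle protein gene, ran from 0 to 21.6 CPM. The mean log2 CPM of the brain markers tested was 0.653 to 3.71 in vehicle and 0.786 to 3.75 at 6 mg/kg. The numbers in the sample titles were read as animal numbers, which the labels do not state in words, so p-values measure the spread between libraries, which may be technical.

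Cyp2b10 transcript was close to absent in vehicle liver and stood higher at each higher dose. In the vehicle animals it stood at 2.23 CPM (animal 3), 1.72 (animal 4), 0.738 (animal 7) and 1.43 (animal 8), from 23, 18, 7 and 12 counts. At 0.1 mg/kg the levels were 1.67 CPM (animal 23), 1.36 (animal 25), 4.59 (animal 28) and 4.62 (animal 29). Animals 28 and 29 lay above every vehicle animal and the other two lay inside the vehicle range. At 1 mg/kg Cyp2b10 ran from 2.52 to 14.3 CPM with a median of 7.44. All 6 animals exceeded the highest vehicle animal, the lowest of them by 1.13-fold. At 6 mg/kg the animals gave 11.4 CPM (animal 52), 50.1 (animal 53), 51.1 (animal 54), 246.9 (animal 55), 215.4 (animal 56) and 26.5 (animal 58). The lowest of these was 5.11 times the highest vehicle value, and 5 of the 6 also exceeded every animal at 1 mg/kg.

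The means of Cyp2b10 were 1.53 ± 0.621 CPM in vehicle (SD, n = 4) and 3.06 ± 1.79 in the lowest dose group (SD, n = 4). They were 7.84 ± 4.61 in the middle group (SD, n = 6) and 100.2 ± 103 in the highest (SD, n = 6). Fitted over vehicle, the log2 fold changes in order of dose came to 1.00 ± 0.925, 2.34 ± 0.840 and 6.01 ± 0.912 (each with its SE). Between doses they were 5.02 ± 0.847 for 6 against 0.1 mg/kg and 3.67 ± 0.654 for 6 against 1 mg/kg. At 0.1 mg/kg the change was about the size of its own standard error, and the groups overlapped. With an index of clock transcripts as a covariate, chosen after seeing the data and described further on, the changes over vehicle in order of dose were 2.30, 3.86 and 7.42. Vehicle livers did not overlap any dosed group in that index, so dose and index cannot be told apart in these adjusted changes. The levels of Cyp2b10 had a part in choosing the gene, and its changes are given without a test. For scale, edgeR's quasi-likelihood test with Benjamini-Hochberg adjustment called 2.8% of 12968 genes at 6 mg/kg against vehicle (1.8% higher and 0.995% lower). It called 0% at 1 mg/kg and 0.0154% at 0.1 mg/kg. It called 0.0386% for 6 against 0.1 mg/kg and 0% for 6 against 1 mg/kg. Where 0 were called, an unadjusted p under 0.05 marked 1095 genes (8.44%) at 1 mg/kg against vehicle and 1767 (13.6%) for 6 against 1 mg/kg, and DESeq2 called 24 and 86.

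**Figure D1:**
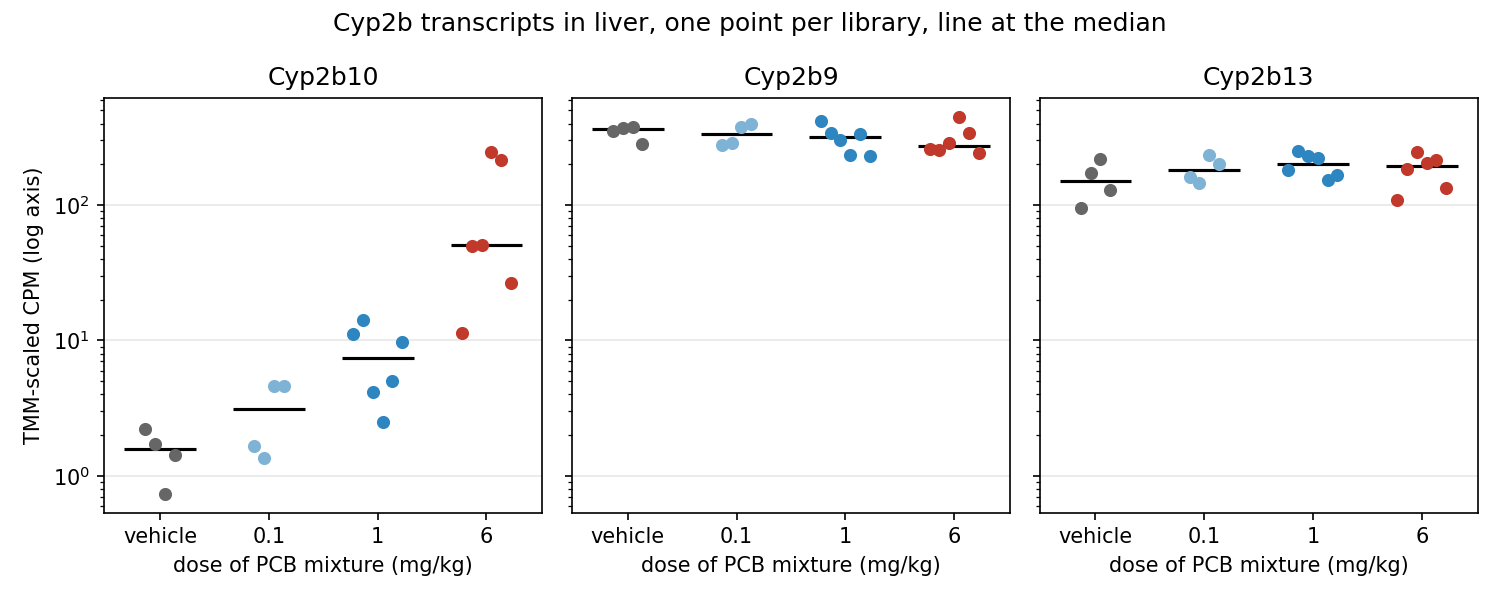
Liver levels of Cyp2b10, Cyp2b9 and Cyp2b13 in TMM-scaled CPM on a log axis, by dose in mg/kg, with 1 point per library and a line at the group median. The Cyp2b10 medians run 1.57, 3.13, 7.44 and 50.6 from vehicle to 6 mg/kg, while the points of Cyp2b9 and Cyp2b13 overlap between all groups.

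Animals given the same 6 mg/kg differed widely in Cyp2b10. The highest animal stood 21.7-fold above the lowest, against 3.01-fold in vehicle, 3.39-fold at 0.1 mg/kg and 5.65-fold at 1 mg/kg. Animals 55 and 56 made up an upper pair, animals 53 and 54 nearly coincided in the middle, and animals 58 and 52 were lowest. Leaving out any 1 library of the groups compared kept the log2 fold change over vehicle between 5.51 and 6.25 at 6 mg/kg.

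Cyp2b9 was the most abundant member in untreated liver. Its medians were 362, 332, 319 and 272 CPM in order of dose, and its groups overlapped. It stood at 354 CPM (animal 3), 371 (animal 4), 377 (animal 7) and 283 (animal 8) in vehicle. At 6 mg/kg the values were 259 (animal 52), 257 (animal 53), 286 (animal 54), 448 (animal 55), 340 (animal 56) and 244 (animal 58). Of these 6 animals, 1 lay above and 3 lay below the whole vehicle range. From vehicle to the top dose the group means were 346 ± 43.4, 334.3 ± 58.8, 310.2 ± 70.8 and 305.4 ± 77.8 CPM (SD, n = 4, 4, 6 and 6). Over vehicle the fitted change was -0.05 ± 0.219 (SE), -0.16 ± 0.199 and -0.18 ± 0.199 in log2 in order of dose, each smaller than its standard error. With the clock covariate, which cannot be told apart from dose in comparisons with vehicle, these turned to 0.21, 0.15 and 0.14.

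Cyp2b13, the other female-predominant member, overlapped between all groups. The vehicle animals gave 94.9 CPM (animal 3), 173 (animal 4), 220.4 (animal 7) and 130 (animal 8). At 6 mg/kg the levels were 109 (animal 52), 186 (animal 53), 246 (animal 54), 205 (animal 55), 216 (animal 56) and 133 (animal 58). Only animal 54 passed the highest vehicle value, and no animal fell under the lowest. In order of dose the means were 154.6 ± 54.2, 186.6 ± 40.3, 200.3 ± 38.5 and 182.5 ± 52.04 CPM (SD, n = 4, 4, 6 and 6). Cyp2b13 differed from vehicle by 0.27 ± 0.263 (SE), 0.37 ± 0.243 and 0.24 ± 0.242 in log2, in the same order.

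Per kilobase of transcript Cyp2b9 stood highest, Cyp2b13 next and Cyp2b10 lowest in every liver library except that of animal 55. In vehicle liver the mean level was 184.4 CPM per kb for Cyp2b9, 82.5 for Cyp2b13 and 0.797 for Cyp2b10. Cyp2b10 was thus a trace transcript beside both of its relatives. At 6 mg/kg the means were 162.8 for Cyp2b9, 97.3 for Cyp2b13 and 52.3 for Cyp2b10. In animal 55 Cyp2b10, at 128.9 CPM per kb, passed Cyp2b13 at 109 but not Cyp2b9 at 238.8, and in animal 56 it reached 112.4 beside 115 for Cyp2b13. In the other 4 animals at this dose Cyp2b10 lay between 5.93 and 26.7 CPM per kb.

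As a share of all counts on the 3 members, Cyp2b10 took 0.123% to 0.494% in vehicle and 2.996% to 27.9% at 6 mg/kg. The 95% Wilson interval was 2.49% to 3.60% in animal 52 and 26.96% to 28.9% in animal 56, and these intervals cover counting error only. The summed level of the 3 members differed far less between doses than Cyp2b10 itself, with medians of 498, 522, 514 and 538 CPM in order of dose. It was highest in animals 55 and 56.

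**Figure D2:**
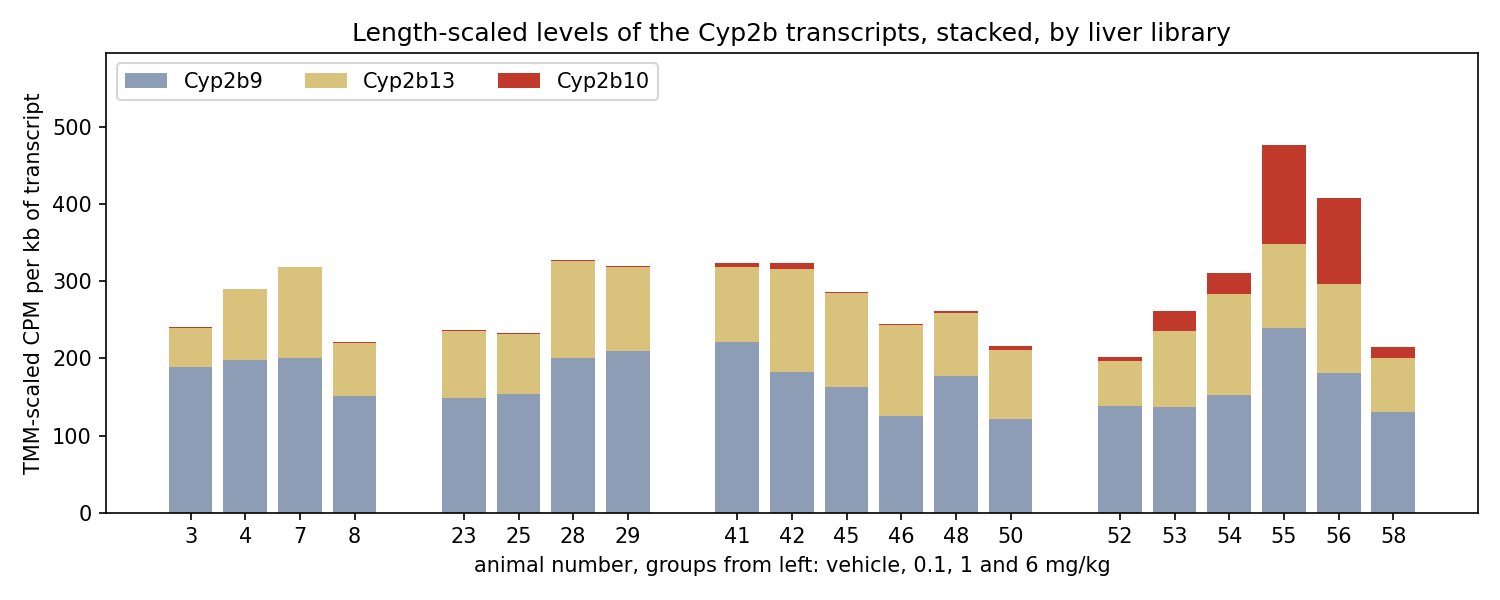
Length-scaled level of each member, in TMM-scaled CPM per kilobase of transcript, stacked for each liver library, with animal numbers along the axis and dose groups separated by gaps. Cyp2b10 is barely visible in vehicle, 0.1 and 1 mg/kg libraries and forms the top block in animals 55 (128.9) and 56 (112.4).

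Neither brain region listed a member. The smallest gene total was 10 counts over the 21 libraries in both brain tables, so a member below that total would not appear in them. Another gene of the subfamily, Cyp2b19, was listed in both at the bottom of the range, with 33 counts in all of prefrontal cortex and 21 in all of striatum, and was not listed in liver. Of the 50 other CAR target genes considered here, 49 were listed in liver and 21 in each brain table. Nr1i2, the pregnane X receptor gene, was not listed in prefrontal cortex and had 10 counts in striatum, while Cyp1a2 was listed in neither. The partner genes were present in brain: the medians were 100 CPM (prefrontal cortex) and 142 (striatum) for Por and 36.2 and 54.99 for Rxra, here without TMM scaling.

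Nr1i3, the gene of CAR, shares most of its exonic bases with a neighbour. In GENCODE vM21, 3304 of the 4414 exonic bases of Nr1i3 overlap exons of Tomm40l, a mitochondrial import gene on the other strand, and whether strand was used in counting is not given in the sources used here. The counts of both genes lay within 0.1 of a ratio of 1 in 14 of 20 liver libraries. In the other 6 Tomm40l had more counts than Nr1i3: the ratio of Nr1i3 to Tomm40l was 0.335 (animal 42), 0.383 (animal 46) and 0.593 (animal 48) at 1 mg/kg, and 0.589 (animal 53), 0.857 (animal 54) and 0.632 (animal 56) at 6 mg/kg. In prefrontal cortex Nr1i3 had a median of 52.6 CPM beside 68.6 for Tomm40l, and in striatum 60.3 beside 79.8. Values of Nr1i3 below may hold reads of Tomm40l, to a degree that was not tested and that may differ between libraries.

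Other genes of the CAR pathway in liver were compared at 6 mg/kg against vehicle, where 2.8% of all tested genes were called, 1.8% upward and 0.995% downward. Of 49 tested CAR target genes other than the members, 7 rose and 1 fell (16.3%), and their median log2 fold change was 0.11 beside 0.02 over all genes. Most of the list thus did not pass, and 30 of the 49 had a positive sign. Those that rose were drug-handling genes: the hydroxylases Cyp2c54, Cyp2c50, Cyp2c37, Cyp3a59 and Cyp1a2, the carboxylesterase Ces2a and the conjugate exporter Abcc3. Cyp1a2 is also a known target of the dioxin receptor. The Cyp2c and Cyp3a families also hold closely related genes, so a read may fit more than 1 of them and their separate counts are uncertain. How much sequence they share was not measured here.

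Cyp2c54 went up from a median of 21.9 CPM (12.5 to 29.2) in vehicle to 195.2 (101.8 to 342) at 6 mg/kg, with no overlap. The edgeR log2 fold change was 3.31 ± 0.683 (SE, adjusted p = 0.0204). For Cyp1a2 the 4 vehicle animals gave 320 to 374 CPM and the 6 animals at 6 mg/kg gave 563 to 1191, again with no overlap. Its change was 1.44 ± 0.231 (SE, edgeR adjusted p = 0.00591), and its medians of 346.7, 507, 596.5 and 1033 CPM were in the order of dose. Cyp3a59 rose by 1.20 ± 0.251 (SE, edgeR adjusted p = 0.0197) and Cyp2c50 by 1.16 ± 0.245 (SE, edgeR adjusted p = 0.0199). Abcc3, Cyp2c37 and Ces2a rose as well, at 1.07 ± 0.238 (SE), 1.04 ± 0.237 and 1.01 ± 0.173 (edgeR adjusted p = 0.0244, 0.0271 and 0.00931). Cyp2c38 alone fell, from a median of 165.5 to 101.8 CPM, at -0.84 ± 0.197 (SE, edgeR adjusted p = 0.0293). All of these were smaller than the 6.01 of Cyp2b10, and its textbook companions Cyp3a11 and Cyp2c55 did not pass. Cyp2c55 was near the floor, with 17 to 31 counts per library in vehicle and 0 to 150 at 6 mg/kg.

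**Figure D3:**
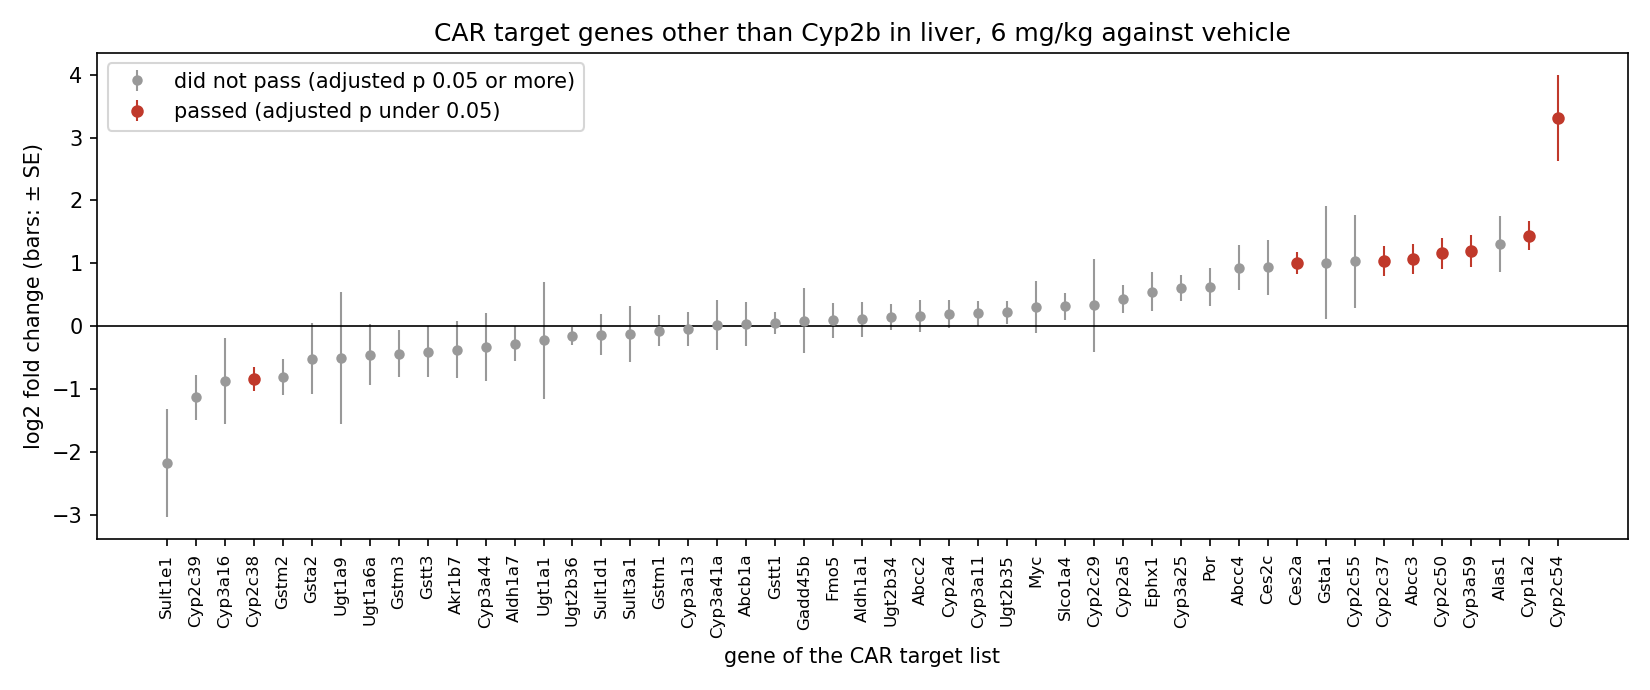
Log2 fold change with its standard error of the 49 tested CAR target genes other than Cyp2b in liver, 6 mg/kg (n = 6) against vehicle (n = 4), sorted by size, with the genes that passed the adjusted threshold in red. Of the red points 7 lie above 0, led by Cyp2c54 at 3.31, and 1 lies below, Cyp2c38 at -0.84.

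The number of these genes called changed with the libraries in the fit, while the fold changes of those named kept their direction. On leaving out any 1 library of the groups compared, the log2 fold change ran from 3.12 to 3.50 for Cyp2c54, 1.36 to 1.55 for Cyp1a2, 1.04 to 1.45 for Cyp3a59 and 0.98 to 1.30 for Cyp2c50. It ran from 0.95 to 1.18 for Abcc3, 0.90 to 1.23 for Cyp2c37, 0.89 to 1.16 for Ces2a and -0.91 to -0.72 for Cyp2c38. The number of all genes called moved with that of the list. Without vehicle animal 4 none of the 49 passed (15 at an unadjusted p under 0.05, edgeR), beside 3 of all genes (2268 unadjusted). Without vehicle animal 3 only 1 of the 49 did, beside 11 of all genes. Leaving out animal 7, 52 or 58 gave 4, 5 and 4 of the 49, beside 94, 89 and 60 of all genes, and leaving out animal 56 gave 12 beside 1302. With the 2 groups alone in the fit 2 of the 49 passed beside 13 of all genes, and DESeq2 called 11 beside 1122. At 1 and 0.1 mg/kg against vehicle, for 6 against 0.1 mg/kg and for 6 against 1 mg/kg edgeR called 0 of the 49. At an unadjusted p under 0.05 these comparisons had 8, 5, 9 and 10 of the 49, beside 8.44%, 4.11%, 12.8% and 13.6% of all genes, and DESeq2 called 2 of the 49 beside 24 of all genes at 1 mg/kg against vehicle, 0 beside 11 at 0.1 mg/kg against vehicle, 4 beside 141 for 6 against 0.1 mg/kg and 3 beside 86 for 6 against 1 mg/kg.

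Among 24 genes of the receptor, its chaperones and its cofactors, 2 rose at 6 mg/kg and none fell (8.33%, beside the same 2.8% of all genes). Among them was Nr1i2, which shares many targets and ligands with CAR, and it gained 0.71 ± 0.187 in log2 (SE, edgeR adjusted p = 0.0441). The call of Nr1i2 was lost on leaving out any library of the groups compared other than animal 55 or 56, with edgeR adjusted p up to 0.152, while its log2 fold change stayed between 0.61 and 0.80. Nr1i3 stood at 1.03 ± 0.311 and did not pass in edgeR (adjusted p = 0.0698), though it did in DESeq2 (adjusted p = 0.0178) and in edgeR without animal 55 or animal 56 (adjusted p = 0.0373 and 0.0217). The reductase Por gave 0.63 and Rxra gave -0.07, and neither passed (edgeR adjusted p = 0.200 and 0.885). Of 7 tested neighbours in the same P450 cluster of chromosome 7, such as Cyp2a5 and Cyp2f2, none passed in edgeR, with 1 at an unadjusted p under 0.05, beside 24.2% of all genes.

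Other differences ran alongside that of Cyp2b10. An index of the circadian clock, the log2 level of Dbp less that of Arntl, a pair of transcripts that peak at opposite times of day, was 2.04 to 5.45 in vehicle. In order of dose it was 6.17 to 7.98, 5.76 to 8.60 and 6.58 to 8.48 in the treated groups, so vehicle livers did not overlap any dosed group. Dose and index therefore cannot be told apart in comparisons with vehicle. Times of collection are not given in the sources used here. With the index as a covariate, chosen after seeing the data, the log2 fold change of Cyp2b10 at 6 mg/kg over vehicle was 7.42, and 0 of the 49 CAR target genes were called (8 at an unadjusted p under 0.05, edgeR), beside 0 of all 12968 genes (471 unadjusted). Between dosed groups, where the index overlapped, Cyp2b10 was 5.12 for 6 against 0.1 mg/kg and 3.56 for 6 against 1 mg/kg with the covariate. Within 6 mg/kg the index ran from 6.58 to 8.48 and Cyp2b10 had r = -0.62 and rho = -0.43 with it (n = 6, with no test).

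Cell type markers were compared as well. Of 9 tested hepatocyte markers none passed at 6 mg/kg against vehicle in edgeR, beside 2.8% of all genes, and 3 had an unadjusted p under 0.05, beside 24.2%. Of these 9, 8 had a lower fitted level, with a median of -0.21 in log2. Their summed level was 118216 to 137955 CPM in vehicle and 88118 to 146105 at 6 mg/kg. The 7 Kupffer cell markers summed to 131.5 to 208 CPM in vehicle and 177 to 381 at 6 mg/kg, and 1 of them, Clec4f, rose by 0.93. The medians of that list were 0.57, 0.51 and 0.43 in order of dose. No marker of the other types passed in edgeR at 6 mg/kg. The 3 tested red cell markers, among them the globin genes Hba-a1 and Hbb-bt, had a median of -2.77 in log2 with 2 at an unadjusted p under 0.05. They summed to 47.8 to 3064 CPM in vehicle and 69.3 to 229 at 6 mg/kg, so the vehicle livers spread far more than those at 6 mg/kg, and 1 animal at 1 mg/kg reached 2639. Of 6 endothelial markers 5 had a lower fitted level, with a median of -0.37 and 2 unadjusted, and they summed to 149.0 to 179 CPM in vehicle and 114.8 to 172.8 at 6 mg/kg. The 6 stellate cell markers had a median of 0.44 and the 6 of cholangiocytes -0.17, with 1 unadjusted in each. Markers of brain, 9 of which were tested, had a median of 0.37 and 0 unadjusted. In whole liver, fewer cells of a type and less RNA per cell cannot be told apart. The part of the clock transcripts, the cell mix or the sampling of the liver in the Cyp2b10 levels was not tested.

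Within the 6 mg/kg group, the order of the animals in Cyp2b10 was set beside other transcripts over 10 relations. The levels of Cyp2b10 in these libraries had a part in choosing the gene, so the relations are descriptions of 6 libraries, without a test. Nr1i3 ran in nearly the opposite order, with 808 CPM in animal 52, 665 in animal 58, 494 in animal 53, 366 in animal 54, 329 in animal 55 and 227 in animal 56. The vehicle range was 215 to 271. Nr1i2 ran the same way, from 139.8 CPM in animal 52 and 132.9 in animal 58 through 116.6 (animal 53) and 93.0 (animal 54) to 85.9 in animal 55 and 68.9 in animal 56. Several other transcript groups differed between the same animals. The summed pericentral genes stood at 12356 CPM in animal 55 and 10485 in animal 56, the pair with the most Cyp2b10, then at 9522 (animal 53), 7046 (animal 54), 6446 (animal 52) and 6328 (animal 58), beside 9565 to 12321 in vehicle. Stellate markers summed to 338 CPM in animal 56 and 258.4 in animal 55, against 123.9 to 168.6 in the other 4. Endothelial markers summed to 172.8 CPM in animal 55 and 168.8 in animal 56, against 114.8 to 157.6 in the others. The mean log2 level of the brain markers was lowest in animal 55, at 0.79, and highest in animal 52, at 3.75, the animal with the least Cyp2b10. The part of these in the order of the receptor transcripts was not tested.

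For Nr1i3 the correlation of log2 CPM with Cyp2b10 was r = -0.92 and rho = -0.94 (n = 6). For Nr1i2 it was r = -0.91 and rho = -0.94 (n = 6). Without animals 52 and 55, the farthest from the median of Cyp2b10, r was -0.96 for Nr1i3 and -0.95 for Nr1i2 over 4 animals. With Tomm40l in place of Nr1i3, chosen after seeing the data, r was -0.85 (n = 6). In the 6 animals at 1 mg/kg, a comparison also added after seeing the data, Nr1i3 gave r = -0.47 and Nr1i2 gave r = 0.37, so the order of Nr1i2 was not the same there.

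**Figure D4:**
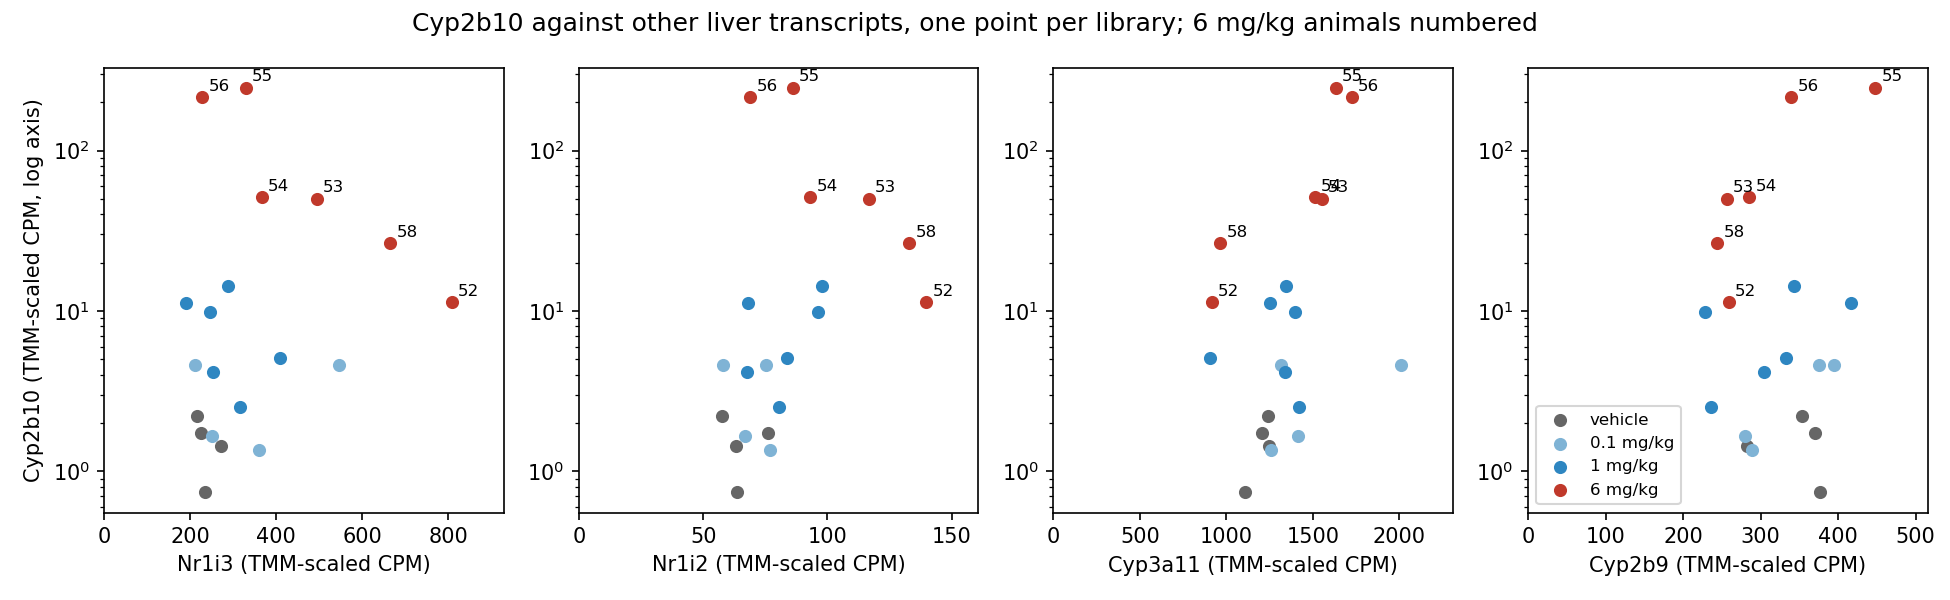
Cyp2b10 in TMM-scaled CPM on a log axis against Nr1i3 (which may share reads with Tomm40l), Nr1i2, Cyp3a11 and Cyp2b9 on linear axes, 1 point per liver library, coloured by dose, with the 6 mg/kg animals numbered. At 6 mg/kg the points fall from upper left to lower right for Nr1i3 (r = -0.92) and Nr1i2 (r = -0.91) and rise for Cyp3a11 (r = 0.87) and Cyp2b9 (r = 0.85).

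Cyp3a11, a P450 shared as a target by CAR and the pregnane X receptor, went in nearly the same order as Cyp2b10 at 6 mg/kg, although it did not pass against vehicle. Its r was 0.87 and its rho 0.89 (n = 6). Cyp2b9 gave r = 0.85 and rho = 0.83 (n = 6). In the 6 animals at 1 mg/kg, compared after seeing the data, Cyp3a11 gave r = 0.065 and rho = -0.26, so the order was not the same there. Without animals 52 and 55, r at 6 mg/kg was 0.79 for Cyp3a11 and 0.96 for Cyp2b9 over 4 animals. Cyp2b13 gave r = 0.77 with Cyp2b10 and 0.53 with Cyp2b9, Cyp1a2 gave 0.81 and Cyp2c55 gave 0.64 (n = 6). Cyp2c55 had 0 counts in animal 58, and with a prior count of 0.5 its r was 0.58. The total count of a library gave r = 0.72 with Cyp2b10 (n = 6).

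Over all 20 liver libraries after removal of the group means, Cyp2b10 and Cyp2b9 had r = 0.67, although Cyp2b10 spread most at 6 mg/kg. Without TMM scaling r at 6 mg/kg was 0.68 for this pair, and in the 6 animals at 1 mg/kg it was 0.47.

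By likeness of pattern over the 20 liver libraries, which differ in dose, the genes nearest to Cyp2b10 included Rnpepl1 (r = 0.82), Cyp1a2 (0.79), Slc25a10 (0.78) and Sh3bp2 (0.77). After removal of the group means these were 0.61, 0.32, 0.21 and 0.44, so much of the likeness of Cyp1a2 and Slc25a10 lay between doses. The genes nearest to Cyp2b9 kept their likeness within doses: Slc22a28 gave r = 0.92 and 0.93 after removal, Lima1 0.92 and 0.92, and Gm5577 0.90 and 0.91. Their medians in vehicle and at 6 mg/kg were 6.05 and 1.42 CPM for Slc22a28, 43.7 and 19.7 for Lima1, and 19.3 and 2.38 for Gm5577. Cyp2b13 was matched less closely, by Man2b1 (0.75), Ddo (0.75) and Erc1 (0.73). These values describe 20 libraries of 4 dose groups and carry no test.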

How the data were processed

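Total RNA of liver, prefrontal cortex and striatum was sequenced. Gene counts, keyed by Entrez identifier, were used as the authors deposited them. Per the submitters' processing notes the tools were FastQC and HISAT2 and the build mm10. The counting tool, annotation and use of strand are not given in the sources used here. Names were matched through RefSeq and gene lists (99.9% or more of identifiers per table).

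The members and lists were chosen with earlier results of these data known. Counts of all 20 liver libraries were fitted in 1 model with a mean per dose (edgeR 4.0.16 in R 4.3.3, filterByExpr, TMM, robust quasi-likelihood test), and p-values were adjusted over 12968 genes by Benjamini-Hochberg at 0.05. The SE of a log2 fold change was taken as its size divided by the square root of the quasi-likelihood F value, so it holds the same information as that test. Log2 CPM used a prior count of 2. DESeq2 1.42.0 was an alternative. Named were the members, at most 10 called genes per list, the receptor and reductase genes, and the genes of nearest pattern, and some results these rules select are not reported here. Relations between the members and other genes are given as Pearson's r and Spearman's rho without the planned permutation p, since the levels per library had a part in choosing the members. On simulated data of 12768 genes the test recovered 84% of 4-fold and 45% of 2-fold changes, with 5.15% false calls. Depth limits low levels: 7 counts of Cyp2b10 in a vehicle library carry a wide counting error. Gene models came from GENCODE vM21, whose build, GRCm38, is that of mm10.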

Additional observations from a re-analysis of the deposited data

How the results depend on the processing

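No paired analysis was possible because the dose groups compared within the liver share no animal numbers. Alternatives with a covariate, at 1 mg/kg or with Tomm40l were chosen after seeing the data, and the cause of each change was not tested. At 6 mg/kg against vehicle the number of genes called went from 363 to 1122 under DESeq2, 241 when no filter was set, 13 from the 2 groups by themselves, 637 with the brain marker covariate, 0 with the clock covariate (471 at an unadjusted p under 0.05, edgeR) and 3 to 1302 on leaving out 1 library. CAR target genes called went from 8 to 2 with the 2 groups alone, 0 with the clock covariate and 0 to 12 on leaving out 1 library. At 1 mg/kg against vehicle all genes called went from 0 to 24 with DESeq2, 1 with the 2 groups alone, 1 with the brain marker covariate and 0 to 3 on leaving out 1 library, and CAR target genes to 2 with DESeq2. At 0.1 mg/kg against vehicle the 2 genes called became 11 with DESeq2, 0 with the clock covariate (187 unadjusted, edgeR), 4 with the brain marker covariate and 0 to 2 on leaving out 1 library. For 6 against 0.1 mg/kg the 5 genes called became 141 with DESeq2, 14 with a mean count of at least 10, 0 with the 2 groups alone (1331 unadjusted, edgeR), 3 with the clock covariate, 18 with the brain marker covariate and 1 to 9 on leaving out 1 library, and CAR target genes went from 0 to 4 with DESeq2. For 6 against 1 mg/kg DESeq2 called 86 genes and 3 CAR targets, the brain marker covariate 4 and 1, and leaving out 1 library 0 to 1.

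With the clock covariate the log2 fold changes over vehicle at 6, 1 and 0.1 mg/kg were 7.42, 3.86 and 2.30 for Cyp2b10 and 0.14, 0.15 and 0.21 for Cyp2b9. Rxra was 0.15 at 6 mg/kg. Arntl was 0.53 there, but Arntl is part of the index, so that value is fixed in part by the covariate itself. Vehicle and dosed livers did not overlap in the index, so dose and index cannot be told apart in these values. With the counts of the 3 members summed to 1 feature the change was 0.23, 0.046 and 0.062 over vehicle at 6, 1 and 0.1 mg/kg, 0.17 for 6 against 0.1 mg/kg and 0.18 for 6 against 1 mg/kg. On leaving out 1 library Cyp2b10 kept its sign, with 5.51 to 6.25, 2.08 to 2.58 and 0.73 to 1.24 over vehicle at 6, 1 and 0.1 mg/kg, and Rxra ran from -0.21 to 0.023 at 6 mg/kg. The relation of Cyp2b10 and Cyp2b9 had r = 0.67 over all 20 libraries after removal of the group means, and at 1 mg/kg r turned to -0.054 for Cyp2b10 and Cyp2b13, -0.0065 for Cyp2b9 and Cyp2b13, 0.37 for Cyp2b10 and Nr1i2 and -0.50 for Cyp2b10 and Cyp1a2. Leaving out 1 library at 6 mg/kg moved r with Cyp2b10 between -0.97 and -0.87 for Nr1i3, -0.94 and -0.87 for Nr1i2, 0.62 and 0.91 for Cyp1a2 and 0.77 and 0.92 for Cyp3a11.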

Other observations

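Genes that differ between female and male mouse liver, the class to which Cyp2b9 and Cyp2b13 belong, did not pass at 6 mg/kg against vehicle: 0 of 15 female-predominant and 0 of 10 tested male-predominant genes were called by edgeR, beside 2.8% of all genes. At an unadjusted p under 0.05 there were 2 of each, beside 24.2% of all genes. Their median log2 fold changes were 0.022 and 0.070. At 1 mg/kg against vehicle edgeR again called 0 of either list, and 0 of all genes. There 9 of the 10 male-predominant genes had a higher fitted level, with a median of 0.91 and 5 of 10 at an unadjusted p under 0.05, beside 8.44% of all genes. The female-predominant genes had a median of -0.10 there, with 3 of 15 unadjusted. At 0.1 mg/kg the medians were 0.32 for the female-predominant and 0.22 for the male-predominant genes, with 0 called and 0 unadjusted in either (edgeR). Of 12 genes of the pericentral zone, where CAR targets are known to be most abundant, edgeR called 1 at 6 mg/kg against vehicle (8.33%, beside 2.8% of all genes): the vitamin C synthesis gene Gulo fell, at -0.74. In the same comparison 0 of 11 periportal genes were called (edgeR), and 4 genes of each zone had an unadjusted p under 0.05, beside 24.2% of all genes. The summed pericentral level ran from 9565 to 12321 CPM in vehicle and from 6328 to 12356 CPM at 6 mg/kg, where animals 55 and 56, with the most Cyp2b10, had the highest sums and animals 58 and 52, with the least, had the lowest. Of 16 clock genes 5 rose and 1 fell at 6 mg/kg against vehicle (37.5% called by edgeR, beside 2.8% of all genes, made up of 1.8% higher and 0.995% lower), with Per3 at 2.09, Dbp at 1.68 and Arntl at -1.98. On leaving out 1 library as few as 3 of all genes were called, so these 6 calls do not all hold in every fit. The log2 fold changes then ran from 1.80 to 2.52 for Per3, 1.42 to 2.14 for Dbp and -2.25 to -1.67 for Arntl. At 1 and 0.1 mg/kg against vehicle edgeR called 0 of the 16, and 7 and 8 had an unadjusted p under 0.05, beside 8.44% and 4.11% of all genes.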
